A study of Mus musculus with 12 samples.

Results

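Retinoic acid is made inside cells from vitamin A. Retinol is oxidised to retinaldehyde, and retinaldehyde dehydrogenases of the ALDH1A family oxidise retinaldehyde to retinoic acid. Cellular retinoic acid-binding proteins carry it to the nucleus or to the CYP26 enzymes that degrade it, and in the nucleus it binds retinoic acid receptors, which sit on DNA with retinoid X receptors and switch target genes. In mammary tissue and breast tumours, ALDH activity is widely used to mark stem and progenitor cells.

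The 9 genes described here are the aldehyde dehydrogenases Aldh1a1, Aldh1a2, Aldh1a3 and Aldh1a7, the binding proteins Crabp1 and Crabp2, the retinoic acid hydroxylase Cyp26b1 and the receptors Rara and Rarb. They were taken by gene symbol from a table of 55487 genes, and all 9 were found and passed the filter on low counts, as 18019 genes did. The genes were selected on symbol with the genotype differences of these same tumours already known, so their genotype values below are a description and not a test of the family.

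RNA came from breast tumours of 12 C57BL/6J mice carrying MMTV-PyMT, a transgene in which a mammary tumour virus promoter drives the polyomavirus middle T oncoprotein in mammary epithelium. Of these mice, 6 had wild-type Bad (Bad_WT 1 to 6) and 6 carried Bad3SA (Bad3SA 1 to 6), an altered BAD, a cell death protein of the BCL2 family, that lacks its regulatory phosphorylation sites. MMTV-PyMT was shared by both groups, each tumour came from a separate mouse, and no further treatment is given in the labels. Gene counts do not show the Bad3SA substitution, so the genotype labels were not checked here. End-point age ran from 21.286 to 27.143 weeks in Bad_WT (median 23.9) and from 22.857 to 31.143 weeks in Bad3SA (median 27.9), so the groups overlapped in age but differed in its centre. Polyadenylated RNA was sequenced in bulk, with totals of 58096172 to 83296370 counted reads per tumour, at which 3 counts correspond to 0.0346 to 0.0544 CPM (read counts scaled to a common library size). In such bulk samples, fewer cells of a type and less RNA per cell cannot be told apart. Luminal epithelial genes were present in every tumour: the summed level of 8 of them was 4868 to 6856 CPM over the 12 tumours. No other tissue was compared, so these values do not test the tissue label.

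Aldh1a1 and Aldh1a7 are neighbouring, closely related genes, so their sequences are shown first, because the results turn on telling them apart. On GRCm38 (GENCODE M21), Aldh1a1 (ENSMUSG00000053279) lies at chr19:20492715-20643465 on the plus strand and Aldh1a7 (ENSMUSG00000024747) at chr19:20692953-20727562 on the minus strand. Their coding sequences, 1503 bases each, were 91.8% identical with 120 mismatches, whereas the other pairs of the 4 Aldh1a genes were 69.1% to 70.2% identical. The stretch below covers coding bases 310 to 399, counted from the start codon, with the 19 positions that differ in capitals.
Aldh1a1: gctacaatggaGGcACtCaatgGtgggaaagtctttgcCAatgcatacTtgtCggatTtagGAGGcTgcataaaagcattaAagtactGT
Aldh1a7: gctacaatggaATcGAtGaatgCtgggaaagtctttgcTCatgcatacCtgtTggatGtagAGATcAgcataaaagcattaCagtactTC
Of the 4934 windows of 100 bases, the read length, in the annotated Aldh1a1 transcripts, 1 also occurred in Aldh1a7 and none in any other gene. Reads of the 2 genes could thus be told apart over nearly their whole length. Aldh1a1 also overlaps C730002L08Rik and Gm6684 on the opposite strand, and whether the counting used strand is not stated in the sources used here.

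The promoters of these neighbours share a stretch as well. The last 120 bases before a start are printed for a RefSeq start inside the annotated Aldh1a1 gene (GRCm38.p6, plus strand, chr19:20601848-20601967) and for Aldh1a7 (minus strand, chr19:20727557-20727676), with the longest identical run, 65 bases from -94 to -30, in capitals.
Aldh1a1: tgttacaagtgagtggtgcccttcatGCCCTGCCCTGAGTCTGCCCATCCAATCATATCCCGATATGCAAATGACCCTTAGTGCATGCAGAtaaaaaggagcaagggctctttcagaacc
Aldh1a7: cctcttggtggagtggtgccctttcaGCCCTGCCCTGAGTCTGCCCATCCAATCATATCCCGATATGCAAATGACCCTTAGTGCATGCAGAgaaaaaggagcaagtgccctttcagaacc
The run holds the octamer motif ATGCAAAT, so Aldh1a1 and Aldh1a7 carry it within the same shared stretch. RefSeq promoter windows (250 bases before to 50 after a start) were available for 7 of the 9 genes. On either strand, the motif was present in those of 3 genes, Aldh1a1, Aldh1a2 and Aldh1a7. It was present in 1.74% of all 32851 such windows. Because 2 of the 3 genes share the run, nothing is read from this count.

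Rarb is known as a target of retinoic acid through a response element in its promoter, and that element could be read in the RefSeq window. The search covered both strands for direct repeats with 1, 2 or 5 bases between the copies, where each copy was the hexamer AGGTCA or a known variant of it, that is AGTTCA, or else GGGTCA, or else GGTTCA. Matches of different spacing may overlap. Of the 9 genes, 7 had a RefSeq window, 11 windows in all, and a repeat was found in Rarb, at -53 to -37 from a start inside the annotated gene, with 5 bases between its copies. The 250 bases before that start (GRCm38.p6, minus strand, chr14:16575477-16575726) are printed with the copies in capitals.
Rarb: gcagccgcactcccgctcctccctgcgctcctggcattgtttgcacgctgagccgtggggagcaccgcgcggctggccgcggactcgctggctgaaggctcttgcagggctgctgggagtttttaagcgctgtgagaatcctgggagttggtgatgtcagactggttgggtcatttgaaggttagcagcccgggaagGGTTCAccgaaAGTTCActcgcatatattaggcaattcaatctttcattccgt
Such a repeat with any of the 3 spacings was present in 0.588% of all windows, and with 5 bases between in 0.0974%. A match is a description of the letters and not evidence of binding in these tumours.

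Levels are compared between genes per kilobase of annotated exon. Crabp2 was the most abundant of the 9 genes, with a median of 97.8 CPM per kilobase over the 12 tumours, followed by Aldh1a3 at 16.3, Rara at 10.3 and Crabp1 at 6.64. Crabp2 stood above Aldh1a3 in 12 of 12 tumours, Aldh1a3 above Rara in 9 of 12 (not in Bad3SA 4, 5 and 6), Rara above Crabp1 in 11 of 12 and Crabp1 above Cyp26b1 in 10 of 12. Cyp26b1 (1.08), Aldh1a1 (0.807), Aldh1a2 (0.733) and Aldh1a7 (0.609 CPM per kilobase) followed closely: Cyp26b1 exceeded Aldh1a1, and Aldh1a2 exceeded Aldh1a7, in only 6 of 12 tumours each, and Aldh1a1 exceeded Aldh1a2 in 9 of 12. These medians pool the genotypes, and the place of Aldh1a1 differed between them. In Bad_WT its mean of 2.10 CPM per kilobase was above those of Cyp26b1 (1.33), Aldh1a7 (0.775) and Aldh1a2 (0.773). In Bad3SA its mean of 0.641 was below theirs, at 1.01, 0.734 and 0.915. This order depends on exon lengths merged over all annotated transcripts, 4.937 kb for Aldh1a1 and 2.066 kb for Aldh1a7. In CPM not divided by length, the Bad3SA mean of Aldh1a1 (3.16) was below Cyp26b1 (5.38) but above Aldh1a2 (2.07) and Aldh1a7 (1.52). Rarb was far lower, at 0.0638 CPM per kilobase, and lay below Aldh1a7 in 12 of 12 tumours. Crabp2, the carrier, thus led the set in both genotypes, while the place of Aldh1a3 above Rara did not hold in every Bad3SA tumour.

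**Figure D1:**
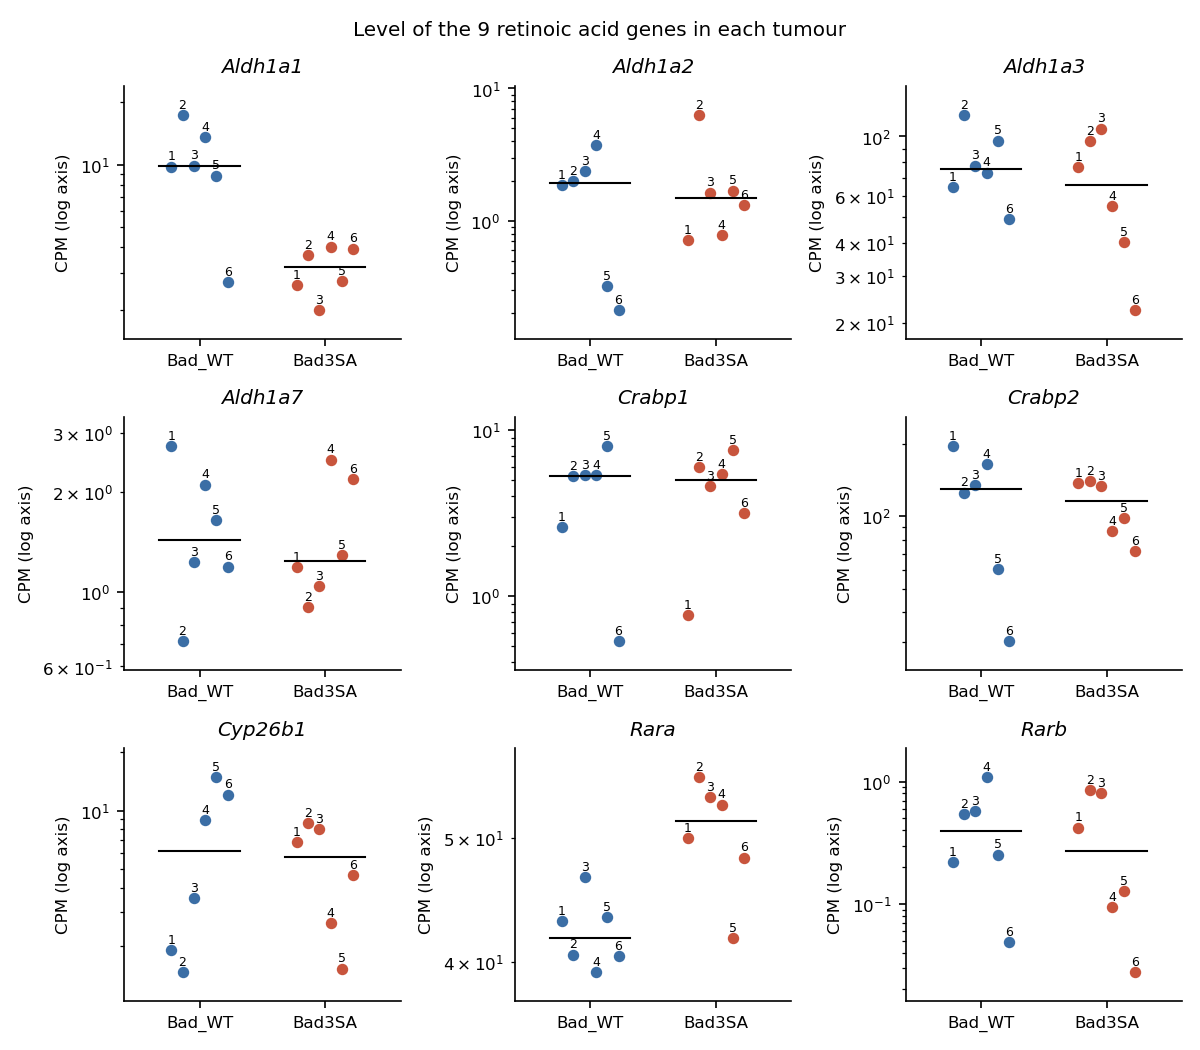
Level of the 9 genes in CPM (log axes, a scale per panel) in the 6 Bad_WT (blue) and 6 Bad3SA (red) tumours; points carry the tumour's number and lines mark group medians. The 6 Bad3SA values of Aldh1a1 lie between 1.99 and 4.03 CPM, below all Bad_WT tumours except Bad_WT 6, while the groups overlap broadly in the other genes apart from Rara.

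Aldh1a1, a retinaldehyde dehydrogenase, was lower in Bad3SA tumours and was the only one of the 9 genes past the threshold over all genes. It was at a lowest of 2.71, a median of 9.85 and a highest of 17.4 CPM in Bad_WT, and at 1.99, 3.20 and 4.03 CPM in Bad3SA. All 6 Bad3SA tumours lay below the Bad_WT median, and the groups overlapped because Bad_WT 6 alone, at 2.71 CPM, lay among the Bad3SA tumours; the next Bad_WT tumour was at 8.87 CPM. Mean levels were 10.4 ± 4.91 CPM for the Bad_WT and 3.16 ± 0.828 CPM for the Bad3SA tumours (SD, n = 6 each). The fitted log2 fold change was -1.71 (SE 0.35), or 3.28-fold lower. The adjusted p of edgeR's quasi-likelihood test was 0.0313, a value already known when the genes were chosen. The same comparison called 249 of 18019 genes (1.38%), of which 137 were lower in Bad3SA (0.76%) and 112 higher (0.622%), so 1 of 9 is printed beside that background and nothing is read from it. In the authors' deposited table, whose sign is Bad_WT minus Bad3SA, Aldh1a1 stood at 1.46 (standard error 0.30, adjusted p 0.000140576), the only one of the 9 genes below 0.05 there.

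The Aldh1a1 call was sensitive to single tumours although its size was not. Without Bad_WT 1, 2, 3 or 5, or without Bad3SA 1, 3, 4 or 5, the edgeR adjusted p was 0.0578 to 0.0920 and the call was lost, with fold changes over all 12 omissions of -1.91 to -1.50 on the log2 scale. Without Bad_WT 6, the value was -1.91 (SE 0.24, edgeR adjusted p = 0.00135) and the groups no longer overlapped.

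Aldh1a7, the neighbour with the shared promoter stretch, was at 0.716, 1.43 and 2.73 CPM (lowest, median, highest) in Bad_WT and at 0.903, 1.24 and 2.49 CPM in Bad3SA. The groups overlapped over nearly their whole range, and the log2 fold change was -0.08 (SE 0.36). Whether it differed from that of Aldh1a1 was not tested, since the latter was known when the genes were chosen. Within 1 Mb of Aldh1a1, 8 genes were tested, Aldh1a1 included, and it was the only one called. With 1.38% of all genes called, nothing is read from the absence of calls among its neighbours. Anxa1, which encodes the phospholipid-binding protein annexin A1, stood at -0.03, and Gda, which encodes guanine deaminase, at 0.55 on the log2 fold change scale. The widest values among the neighbours were positive, opposite in sign to Aldh1a1: the lincRNA AC106834.1 stood at 1.32 (SE 0.40, edgeR adjusted p = 0.140) and Tmc1, a channel protein gene of inner ear hair cells, at 1.18 (SE 0.47, edgeR adjusted p = 0.247). Neither passed, and these neighbours were named after their values were seen. Aldh1a1 lies 13.54 Mb from Bad, on the same chromosome.

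Aldh1a3, the most abundant enzyme of the family here, was at 49.0, 75.6 and 120 CPM in Bad_WT and at 22.4, 65.9 and 107 CPM in Bad3SA. The groups overlapped, with Bad3SA 6 lowest and Bad_WT 2 highest. The log2 fold change was -0.28 (SE 0.33). Aldh1a2, the enzyme needed for most retinoic acid synthesis in the embryo, was at 0.212, 1.93 and 3.74 CPM in Bad_WT and at 0.717, 1.48 and 6.28 CPM in Bad3SA. Here Bad_WT 5 and 6 lay lowest, at 0.32 and 0.21 CPM, and Bad3SA 2 lay far above every other tumour. The log2 fold change was 0.24 with an SE of 0.69, wider than the value itself, and fitted together with age it was -0.95 (SE 0.81, edgeR adjusted p = 0.884).

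Aldh1a1 had means of 2.10 CPM per kilobase in Bad_WT and 0.641 in Bad3SA. Because Aldh1a3 dominates, Aldh1a1 was a small part of the summed level of the 4 enzymes. The shares below depend on the same merged exon lengths. That sum was 21.02 ± 6.25 CPM per kilobase in Bad_WT and 16.6 ± 7.25 in Bad3SA (SD, n = 6 each), with overlapping ranges of 11.8 to 30.8 and 7.29 to 24.8. Aldh1a3 made up 82.8% ± 6.04 of it in Bad_WT and 83.6% ± 9.62 in Bad3SA. Aldh1a1 made up 9.56% ± 3.00 in Bad_WT and 4.91% ± 3.33 in Bad3SA, with its lowest share in Bad3SA 3 (1.63%) and, among Bad3SA tumours, its highest in Bad3SA 6 (10.9%), where Aldh1a3 was lowest.

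**Figure D2:**
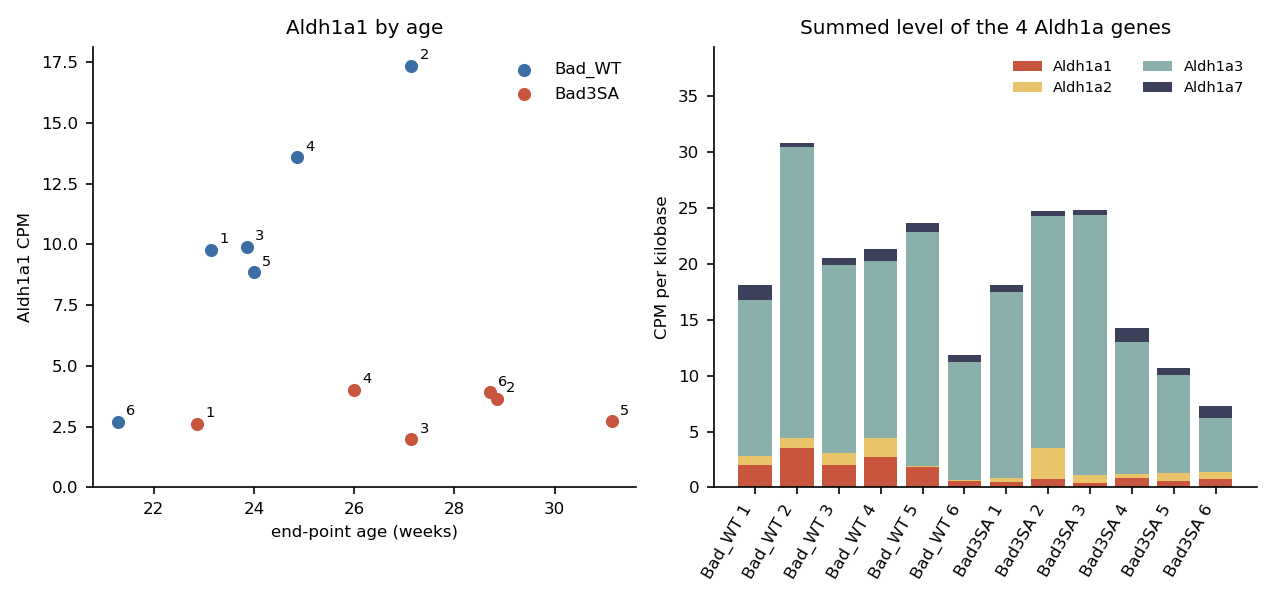
Left, Aldh1a1 in CPM against end-point age in weeks for each tumour (numbers are replicate numbers); right, CPM per kilobase of the 4 Aldh1a genes stacked for each tumour. At 27.143 weeks Bad_WT 2 had 17.4 and Bad3SA 3 had 1.99 CPM of Aldh1a1, the highest and the lowest of all tumours. Bad_WT 6, the youngest at 21.286 weeks, had 2.71 CPM. Aldh1a3 is the largest part of every stack.

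End-point age was not used to choose the genes, so its slope was tested in a model with genotype. None of 18019 genes passed at an adjusted p of 0.05 (0%) in edgeR, and 1520 had an unadjusted p under 0.05 (8.44%). Of the 9 genes, Crabp1 was the only one under that unadjusted threshold, with a slope of 0.35 per week on the log2 scale (SE 0.13, edgeR unadjusted p = 0.0154, adjusted p = 0.583), which did not hold up against the number of genes. Aldh1a1 had a slope of 0.13 per week (SE 0.07, edgeR unadjusted p = 0.0979). For tumours of like age, Bad_WT 1 at 23.143 weeks had 9.79 CPM of Aldh1a1 and Bad3SA 1 at 22.857 weeks had 2.63 CPM. Bad_WT 6, the youngest tumour at 21.286 weeks, had 2.71 CPM, near Bad3SA 1. Such single tumours do not test the part of age in the genotype value. With age in the model, the genotype value of Aldh1a1 was -2.06 (SE 0.38, edgeR adjusted p = 0.0390).

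Neither carrier passed for genotype. Crabp2, which delivers retinoic acid to its receptors, was at 30.4, 130 and 195 CPM in Bad_WT and at 71.5, 116 and 139 CPM in Bad3SA. The lowest tumours were Bad_WT 6 and Bad_WT 5, at 30.4 and 60.3 CPM, and the log2 fold change was -0.09 (SE 0.36). Crabp1, which binds retinoic acid in the cytoplasm, was at 0.539, 5.33 and 8.02 CPM in Bad_WT and at 0.771, 5.03 and 7.59 CPM in Bad3SA. A single tumour of each group, Bad_WT 6 and Bad3SA 1, lay well below the rest, and the log2 fold change was 0.02 (SE 0.55). Fitted together with age, by which the groups differ, the estimate for Crabp1 was -1.21 (SE 0.61, edgeR adjusted p = 0.711). Neither estimate passed.

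Cyp26b1, which hydroxylates retinoic acid for removal, varied widely within each genotype. It was at 1.47, 6.21 and 14.9 CPM in Bad_WT and at 1.52, 5.76 and 8.59 CPM in Bad3SA. Bad_WT 4, 5 and 6 held 8.89 to 14.9 CPM while the other Bad_WT tumours held 1.47 to 3.54 CPM. The log2 fold change was -0.40 (SE 0.58).

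Rara, which encodes retinoic acid receptor alpha, was the least variable of the 9 genes, with a coefficient of variation of 12.5% over the 12 tumours. It was at 39.3, 41.8 and 46.6 CPM in Bad_WT and at 41.8, 51.6 and 55.8 CPM in Bad3SA. In 5 of 6 Bad3SA tumours the level was above every Bad_WT tumour, and Bad3SA 5, at 41.8 CPM, lay within the Bad_WT range. The log2 fold change was 0.26 (SE 0.09, edgeR adjusted p = 0.195), which did not pass; with limma voom it did (adjusted p = 0.0394), and the value stayed between 0.23 and 0.32 over all alternatives.

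Rarb, which encodes retinoic acid receptor beta, was near the limit of the counting. It was at 0.0490, 0.397 and 1.09 CPM in Bad_WT and at 0.0278, 0.273 and 0.854 CPM in Bad3SA, and the lowest tumours, Bad_WT 6 and Bad3SA 6, rest on 3 and 2 counts. The groups overlapped over nearly their whole range, with a log2 fold change of -0.22 (SE 0.76). Rarb overlaps Top2b and Gm48162 on the other strand, so with the use of strand in counting not stated some of its few reads cannot be assigned.

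**Figure D3:**
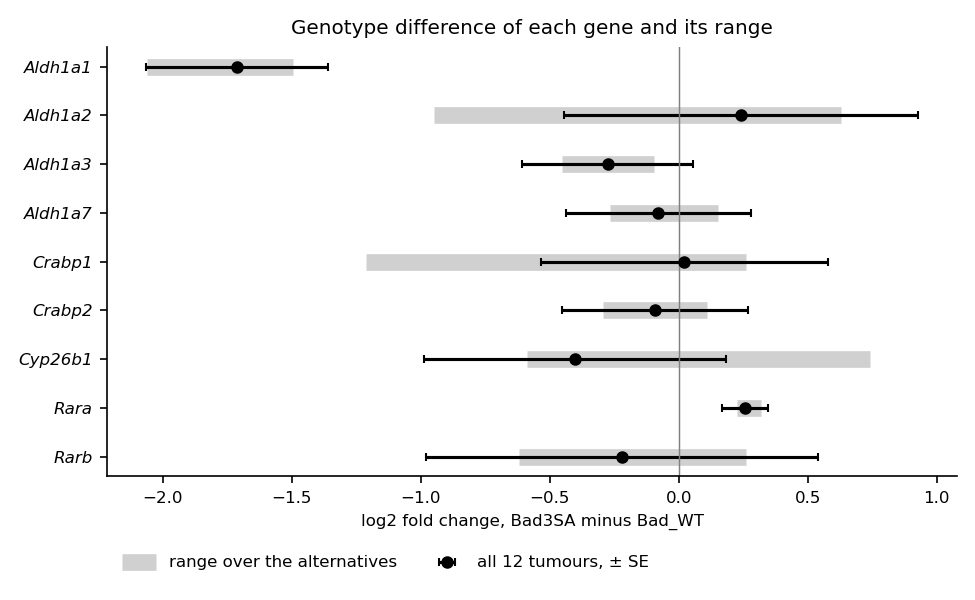
Log2 fold change for genotype (Bad3SA minus Bad_WT) of the 9 genes, with points and SE bars from all 12 tumours and grey bars spanning the other settings and the omission of each tumour. Aldh1a1 lies between -2.06 and -1.50 throughout and Rara between 0.23 and 0.32; 6 of the other genes cross 0.

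Of the 9 genes, 6 had a negative and 3 a positive genotype value, and the CPM of the groups did not overlap in 0 of them, against 402 of all 18019 genes (2.23%). Aldh1a1, Aldh1a3 and Rara kept their sign in every alternative tried. These alternatives reuse the same tumours, so a kept sign is not independent support. Aldh1a3, at -0.28 (SE 0.33), did not pass and its groups overlapped, so no direction is given for it. The other 6 changed sign in at least 1 alternative, and no direction is given for them either.

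Genes outside the set were described from 7 lists of the retinoid pathway, 73 genes in all, of which 62 were tested. No gene of them passed in edgeR for genotype, against 1.38% of all genes tested. An unadjusted p under 0.05 was found for 7, against 16.2% of all genes. Their median log2 fold change was -0.11, with 38 negative and 24 positive, beside a median of 0.0033 and 49.6% negative over all genes tested. Among genes of uptake and storage, Stra6l, related to the retinol transporter Stra6, stood at 1.14 (SE 0.46), Stra6 itself at -0.71 (SE 0.94) and Dgat1, which can esterify retinol, at 0.38 (SE 0.13). Among enzymes of the step before the ALDH1A enzymes, Rdh10, the main retinol dehydrogenase of the embryo, stood at 0.61 (SE 0.43), Rdh12 at -0.50 (SE 0.42) and Rdh11 at -0.35 (SE 0.13). None of these passed over all genes.

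Of the other receptors, Rxra stood at -0.21 (SE 0.24), Rarg at -0.15 (SE 0.14) and Rxrb at -0.02 (SE 0.11). Of the co-regulators, Crebbp, a histone acetyltransferase, stood at 0.35 (SE 0.16), Tbl1x at -0.33 (SE 0.18) and the corepressor Ncor1 at -0.30 (SE 0.13). For carriage and removal, Fabp5, a fatty acid-binding protein that can also carry retinoic acid, stood at 0.06 (SE 0.31) and Cyp26a1, which degrades retinoic acid and is itself a target of it, at -0.54 (SE 0.47). Of 11 tested target genes, 2 were positive and 9 negative, and Hoxb4 stood highest, at 1.21 (SE 0.37, edgeR adjusted p = 0.147). Of 15 other aldehyde dehydrogenases tested, Aldh3b2 stood at -0.27 (SE 0.63), Aldh1l2 at -0.26 (SE 0.38) and Aldh18a1 at -0.21 (SE 0.12). Genes with a mean log2 CPM under 1 held the widest values, and 3 of them were picked after these were seen: the plasma retinol carrier Rbp4 stood at 1.95 (SE 0.63), the receptor Rxrg at 1.32 (SE 1.08) and Aldh3a1 at -1.30 (SE 0.57), none of which passed. The absence of calls among the 62 tested pathway genes is near the share over all genes (1.38%), so nothing is read from it.

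**Figure D4:**
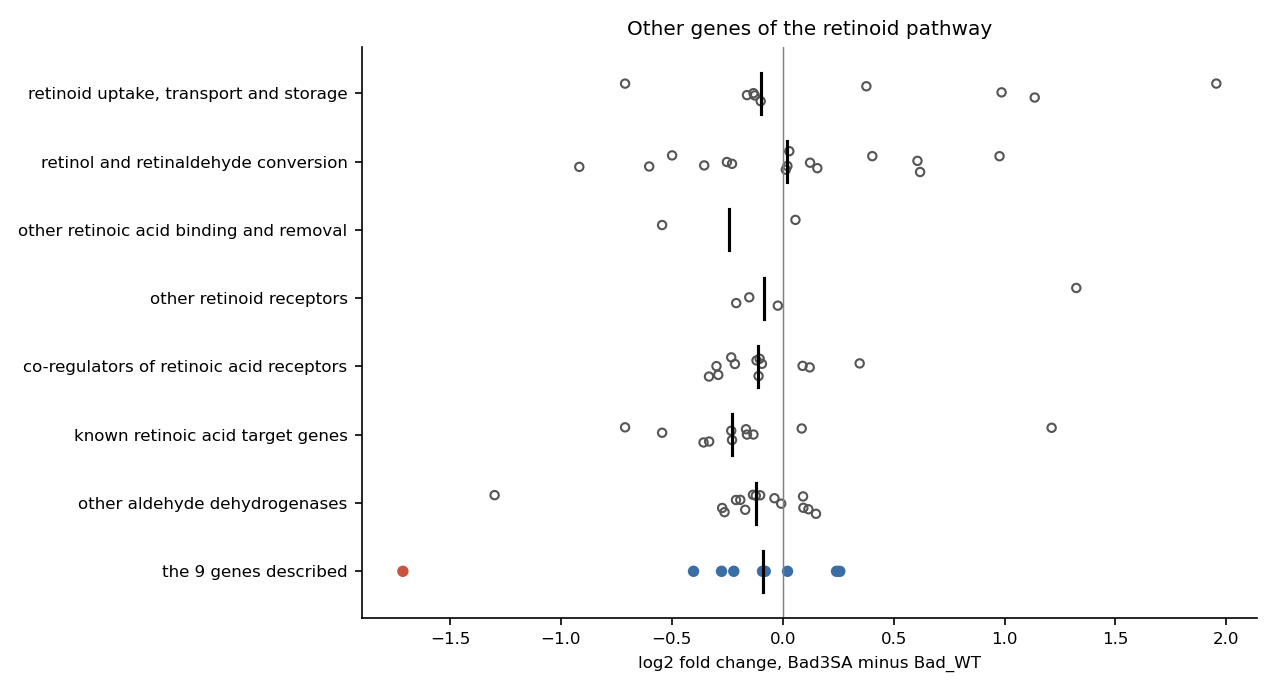
Log2 fold change for genotype (Bad3SA minus Bad_WT) of the 62 tested genes in 7 pathway lists (open circles, spread vertically for clarity; a gene may stand in more than 1 list) and of the 9 genes described (filled; red is Aldh1a1), with list medians as lines. Aldh1a1 at -1.71 is the only gene shown that passed the threshold over all genes.

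Variation between tumours of the same genotype was not used to choose the genes, so pairs were tested after each genotype's mean log2 CPM was removed. Of 36 pairs, 27 had a positive Pearson r, and 2 passed at a Benjamini-Hochberg adjusted p of 0.05 in a two-sided permutation test within genotype. Rarb varied with Aldh1a3 (r = 0.84, permutation p = 0.00188, adjusted p = 0.0338, n = 12; Spearman rho = 0.87, permutation p = 0.00375, adjusted p = 0.135). Within Bad_WT alone r was 0.61 and within Bad3SA alone 0.96, and without the 2 tumours farthest from the median of Aldh1a3 it was 0.73. Rarb also varied with Crabp2 (r = 0.74, permutation p = 0.00174, adjusted p = 0.0338, n = 12; rho = 0.61, permutation p = 0.0115, adjusted p = 0.151), with r of 0.78 within Bad_WT, 0.98 within Bad3SA and 0.68 without the 2 farthest tumours.

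Neither pair is firm. No pair passed on ranks, and when each tumour was left out in turn, each pair kept an adjusted p under 0.05 once in 12, Aldh1a3 with Rarb without Bad_WT 4 and Crabp2 with Rarb without Bad_WT 1. The r values themselves stayed between 0.76 and 0.92 for Aldh1a3 and between 0.61 and 0.87 for Crabp2. Both relations rest on the low counts of Rarb. Aldh1a2 and Crabp2 had r = 0.80 (permutation p = 0.0111, adjusted p = 0.133; rho = 0.78, permutation p = 0.0126, adjusted p = 0.151), which did not pass and was 0.55 without Bad_WT 5 and 6. Aldh1a1 and Aldh1a7, which share the promoter stretch, had r = 0.14 (permutation p = 0.707, adjusted p = 0.855; rho = 0.16, permutation p = 0.639, adjusted p = 0.821). This value depended on Bad_WT 2 and 6, without which r was 0.57; it was -0.03 within Bad_WT and 0.62 within Bad3SA.

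**Figure D5:**
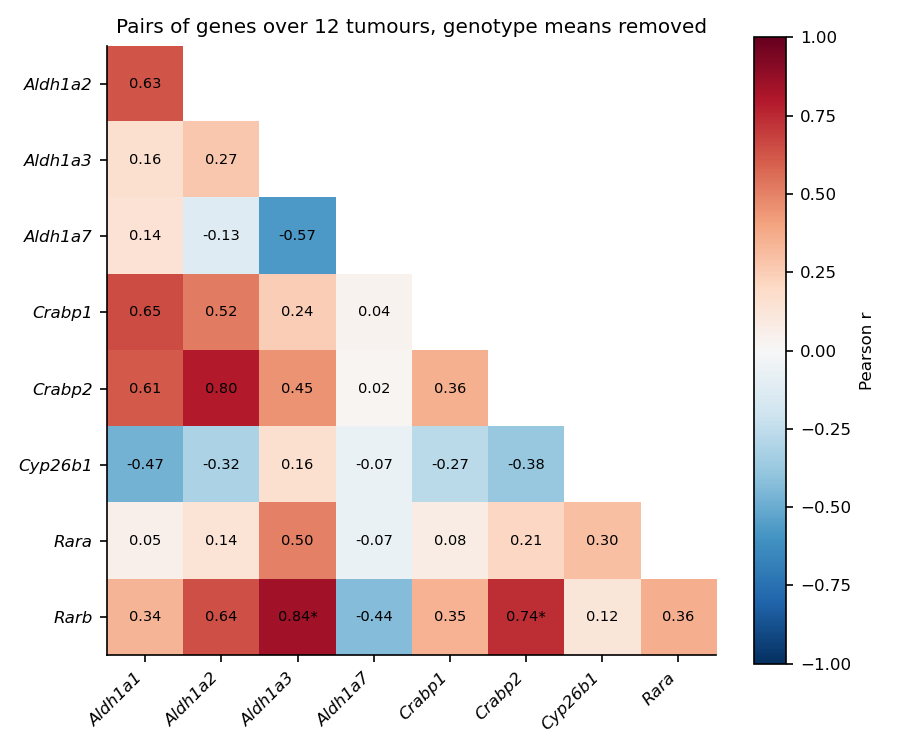
Pearson r of each of the 36 pairs of genes over 12 tumours, computed on log2 CPM after removing each genotype's mean; red is positive, blue negative, and asterisks mark adjusted p under 0.05. Rarb with Aldh1a3 (0.84) and with Crabp2 (0.74) carry the asterisks.

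The genes most like a member in this centred variation were named for the 3 genes with the smallest genotype p, out of 12260 candidates, with no test. For Aldh1a1 they were Cyp27a1, a sterol hydroxylase (r = 0.93), Tmem35a (0.93) and Mr1, which presents vitamin B metabolites to T cells (0.92), over 12 tumours. Without Bad_WT 6, these values were 0.75, 0.75 and 0.69. For Aldh1a3 they were Tet1, a methylcytosine dioxygenase (0.95), Map4k3 (0.93) and Lactb2 (0.93). For Rara they were Zfp267 (0.92), Ttbk2 (0.91) and Armcx2 (0.91). Without Bad_WT 6, the values for Aldh1a3 and Rara were 0.91 to 0.95. With genotype means kept, r in the order named was 0.37, 0.64 and 0.75 for Aldh1a1 and 0.90, 0.93 and 0.80 for Aldh1a3. For Rara it was 0.04, 0.12 and -0.16, so this likeness holds only within genotypes.

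Cell type markers were summed per tumour. No gene of the 17 marker lists passed for genotype, against 1.38% of all genes tested, and nothing is read from this. Bad_WT 6, the tumour at the Bad3SA level of Aldh1a1, had the lowest sum of the 12 tumours for 6 luminal progenitor markers (3826 CPM, against 7278 to 15737 in the other Bad_WT tumours and 8356 to 12734 in Bad3SA). It was also lowest for hormone-sensing luminal, fibroblast, mesothelial (0.0490 CPM), macrophage, T cell, B cell and adipocyte markers. For the remaining lists Bad_WT 6 was not lowest. Among these were luminal epithelium (5370 CPM, against 4868 CPM in Bad3SA 6) and erythroid markers (114 CPM, against 26.0 CPM in Bad_WT 2). Fibroblast sums, over 8 genes, were 281 to 2390 CPM in Bad_WT and 355 to 3156 CPM in Bad3SA. All 6 erythroid genes had a positive genotype value, with sums of 26.0 to 116 CPM in Bad_WT and 67.3 to 229 CPM in Bad3SA, as had all 6 adipocyte genes, with sums of 2.83 to 86.2 and 8.77 to 326 CPM. All 7 T cell genes were positive too (sums of 3.35 to 13.9 and 9.92 to 21.3 CPM), as were the 3 tested B cell genes of 5 listed (sums of 0.686 to 1.99 and 1.30 to 2.79 CPM). All 6 skeletal muscle genes were negative, with a median log2 fold change of -2.36. Their sum was highest in Bad_WT 4, at 1164 CPM. It was 2.36 to 22.6 CPM in the other Bad_WT tumours and 2.30 to 147 CPM in Bad3SA. Only Bad_WT 4 lay above the Bad3SA range, so a generally lower level in Bad3SA is not read from these signs. The part of these markers in the value of Aldh1a1 was not tested.

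Within genotypes, 153 relations of the 9 genes with the 17 marker sums were computed, an analysis added after the values had been seen; 0 passed at an adjusted p of 0.05 and 31 had an unadjusted permutation p of r under 0.05. The smallest p was that of Rarb with luminal progenitor markers (r = 0.74, permutation p = 0.00051, adjusted p = 0.0780, n = 12; rho = 0.69, permutation p = 0.00256, adjusted p = 0.0979), where r was 0.74 without the 2 farthest tumours. Aldh1a2 with fibroblast markers followed (r = 0.82, permutation p = 0.00127, adjusted p = 0.0816; rho = 0.84, permutation p = 0.00224, adjusted p = 0.0979), where r was 0.78 without the 2 farthest tumours. For Aldh1a1, the smallest p was with B cell markers (r = 0.83, permutation p = 0.00867, adjusted p = 0.102; rho = 0.57, permutation p = 0.0746, adjusted p = 0.317), where r was 0.31 without Bad_WT 6 and Bad3SA 3. Its highest r was with the mesothelial markers, whose sum is at most 0.603 CPM (r = 0.85, permutation p = 0.0227, adjusted p = 0.158; rho = 0.68, permutation p = 0.0219, adjusted p = 0.224), and r was 0.71 without the 2 farthest tumours. With fibroblast markers r was 0.69 (permutation p = 0.0180, adjusted p = 0.145; rho = 0.73, permutation p = 0.0131, adjusted p = 0.207) and 0.48 without the 2 farthest tumours. Aldh1a1 with luminal progenitor markers had r = 0.83 (permutation p = 0.0136, adjusted p = 0.115; rho = 0.55, permutation p = 0.102, adjusted p = 0.354), and this rested on the 2 farthest tumours, Bad_WT 2 and 6, without which r was 0.29.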

How the data were processed

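Bulk RNA of 12 breast tumours, 6 per genotype, was analysed. The authors deposited raw read counts per gene as whole numbers; per the submitters' processing notes, fastp 0.23.1, STAR 2.7.9a, DESeq2 and GRCm38 were used, while for the counting step no tool, annotation or use of strand is given in the sources used here. The authors' deposited comparison gives per gene, per the file headers, a mean signal (normalised counts), a Wald score, p-values, and the log2 fold change with its error; its sign was settled against the counts. The 9 genes and the gene lists were chosen with earlier results of these data known.

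The 55487 genes were filtered (filterByExpr, leaving 18019), scaled by TMM and tested with edgeR 4.0.16 (quasi-likelihood F test, robust dispersion, Benjamini-Hochberg over all genes, threshold 0.05), for genotype and, with genotype in the model, for end-point age. The procedure was tested on simulated data. CPM use TMM library sizes. Log2 CPM with a prior count of 0.5, centred on genotype means, gave the correlations, with 100000 permutations within genotype. DESeq2 1.42.0, limma 3.58.1 (voom), other filters and scalings, age as a covariate, a replicate block and the omission of each tumour were alternatives. Coding identity was computed with BLAST+ 2.17.0 from GENCODE M21 transcripts.

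Named genes were the 9 genes, in each list the genes that passed or otherwise the 3 with the largest absolute fold change at a mean log2 CPM of at least 1, and the 3 genes most like each of the 3 genes with the smallest genotype p, predicted models left out.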

Additional observations from a re-analysis of the deposited data

Results flagged for a closer look

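Aldh1a2 in Bad3SA 2 stood at 6.28 CPM, apart from the other 5 Bad3SA tumours, which lay between 0.72 and 1.69 CPM. Its distance to the next tumour was 0.826 of the range of the group, above Dixon's critical value for 6 values. It was the only such value among 18 groups (9 genes in 2 genotypes), and chance alone would flag about 1 in 20. The same tumour had the highest fibroblast marker sum of the 12 (3156 CPM).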

How the results depend on the processing

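The log2 fold change of Aldh1a1 was negative in 20 of 20 alternatives (-2.06 to -1.50), and its call was kept in 7 of 8 alternatives with all tumours and in 4 of 12 omissions of a tumour. Against 249 genes called for genotype, there were 863 with DESeq2's Wald test, 579 with limma voom, 163 with a filter of at least 1 CPM in 6 tumours, 73 with end-point age as a covariate and 147 to 315 with a tumour left out. Of the 9 genes, 2 were called with limma voom (Aldh1a1 and Rara) and 0 to 1 with a tumour left out. For age, 0 genes were called with any tumour left out. The 2 pairs of genes became 0 to 1 with a tumour left out, and no cause was tested for any of these changes. Same-numbered tumours of the 2 genotypes did not vary together (correlations of -0.26 to 0.27 over the 6 numbers, with 1 of 6 Bad_WT tumours correlating best with its own number). These values gave no sign that the numbers pair the mice, but 6 numbers cannot exclude a pairing. With a replicate block, 105 genes were called for genotype, 1 for age and 0 of the 9 genes (Aldh1a1 at -1.61, edgeR adjusted p = 0.149). Depth limits Rarb, with 2 or 3 counts in its lowest tumours.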

Other observations

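Retinoid genes outside the 9 were present at widely different levels. Per kilobase of exon, Aldh2, the mitochondrial acetaldehyde dehydrogenase, had a median of 97.6 CPM over the 12 tumours, close to Crabp2 at 97.8. The receptors Rxra and Rarg stood at 23.6 and 23.4 CPM per kilobase, above Rara at 10.3, and the retinol dehydrogenase Rdh10 at 7.81. Ttr, which carries retinol-binding protein in blood, had no count in any tumour.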
